A study of Homo sapiens with 4 samples.

Results

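HepG2 cells were compared with and without 24 h of exposure to 20 uM PF-429242, an inhibitor of site-1 protease. Members were the nuclear protein-coding genes with at least 5 FPKM (a gene's fragments divided by its length and by the size of the library) in either HepG2 library. These were 6025 of the 16696 nuclear protein-coding genes, and of the 32479 genes of all kinds in the table. The other 10671 nuclear protein-coding genes stayed under that floor in both libraries. The lowest gene inside it was ZNF672, whose higher level was 5.0034 FPKM, and the highest outside it was MFSD1, at 4.9996 FPKM.

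Site-1 protease, the product of MBTPS1, is a Golgi enzyme that makes the first cut in several membrane-bound transcription factors. Its best known substrates are the sterol regulatory element-binding proteins (SREBPs). When sterols are low, the escort protein SCAP carries them from the endoplasmic reticulum (ER) to the Golgi. There site-1 and then site-2 protease release the part that enters the nucleus and switches on genes of cholesterol and fatty acid synthesis. ATF6, a sensor of unfolded proteins in the ER, is cut by the same pair of proteases and acts on genes of ER chaperones. Liver cells make much of the body's cholesterol and fatty acid and secrete large amounts of protein, so both routes are active in them.

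HepG2 is a human line derived from a hepatoblastoma and keeps many traits of hepatocytes. Both HepG2 cultures were labelled wild type and grown in MEM with 10% fetal bovine serum. One was an untreated control taken at 24 h and the other received the inhibitor, and each gave 1 library of total RNA. The same pair of conditions was sequenced in PLC/PRF/5, another human liver cancer line. With 1 library per group no difference has a replicate check and none carries a p-value. A ratio below is treated over control FPKM as deposited, followed in brackets by its 95% exact (Clopper-Pearson) interval from the recovered fragments. Such an interval holds just counting error, for this pair of libraries and not for the conditions.

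The control library held 16722204 counted fragments and the treated library 20350701. A member had a median of 1043 fragments untreated and 1093 treated, and no member had fewer than 55 in the control. Mitochondrially encoded genes made up 16.6% of control fragments and 27.6% of treated ones, and FPKM are shares of one total. The median member had a log2 ratio of (FPKM + 1), treated over control, of -0.19, and ratios below are therefore given relative to that median (centred log2 ratios). A value between 0 and 0.19 changes sign on the deposited scale. Of the markers of the hepatocyte lineage, 12 of 12 were at the floor, with summed levels of 11221 FPKM in the control and 9850 with the inhibitor. Endothelial markers had 0 of 5 members at the floor (summed 1.12 and 1.11 FPKM). Of the 8 fibroblast markers in the table, 3 were at 0 in both libraries and 1, ACTA2, was at the floor (summed 6.49 and 4.44 FPKM). LYZ alone, at 504 and 462 FPKM, gave nearly all of the 508 and 467 FPKM of the 8 blood cell markers. In RNA from whole cultures, fewer cells of a kind and less RNA per cell cannot be told apart.

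Most genes kept their place. The centred log2 ratio had an SD of 0.25 over the members, and 91.7% of them lay within 1.25-fold of the median gene. Relative to that gene, 44 members (0.73%) were lower by 2-fold or more and 10 (0.166%) were higher. At 1.5-fold, 88 (1.46%) were lower and 52 (0.863%) higher. The higher share of the calls past 2-fold was 18.5% here, 7.69% on the deposited scale and 29.4% after quantile normalization. Just inside the threshold for lower genes lay KDELR3 at -1.002 and AP1M2 at -1.005, and MYL9 at -0.965 was outside it. On the higher side S100P at 1.029 lay just inside and MTHFD2 at 0.988 just outside. Across 5 classes of mean FPKM the median centred log2 ratio stayed between -0.01 and 0.05, and across 5 classes of exon length between -0.03 and 0.01.

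**Figure D1:**
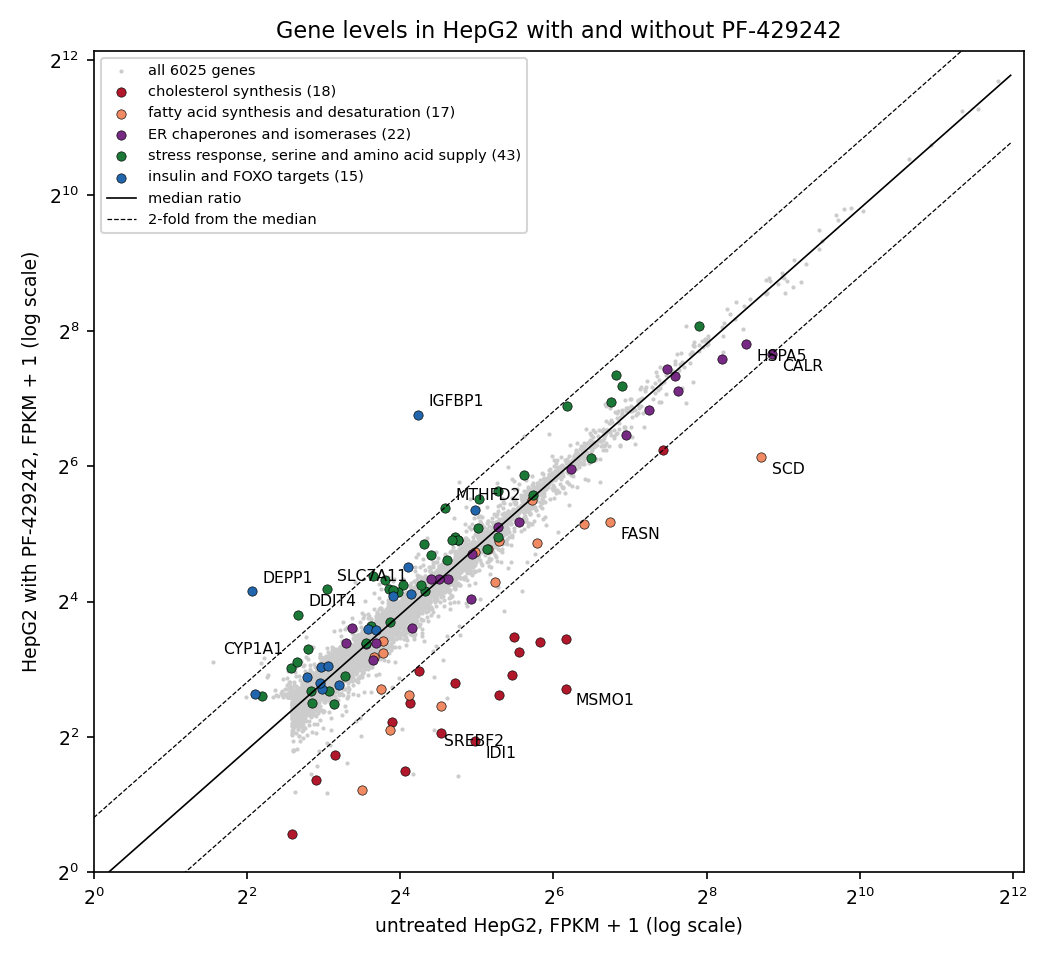
FPKM + 1 of each of the 6025 members in untreated HepG2 (x axis) and HepG2 with PF-429242 (y axis), both on log scales, 1 library each. The solid line is the median ratio and the dashed lines are 2-fold from it. Most of the red and orange points of cholesterol and fatty acid enzymes lie below the lower dashed line, and IGFBP1 and DEPP1 lie farthest above the upper one.

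The lowest levels relative to control belonged to cholesterol synthesis. The pathway builds sterols from acetyl-CoA in a mevalonate stage, which ends in isoprenoid units, and a sterol stage, which starts at squalene. All 18 of its enzyme genes at the floor were lower, 17 of them by 2-fold or more, against 0.73% of all members. Their summed level was 700 FPKM in untreated cells and 164 FPKM in treated ones, a ratio of 0.234.

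In the mevalonate stage, all 7 members were lower by 2-fold or more, and their median centred log2 ratio was -2.09. ACAT2, which joins acetyl-CoA units in the first step, was at 43.8 FPKM in the control and 10.2 FPKM with the inhibitor. MVK, the first kinase of the stage, barely entered the members at 5.03 FPKM in the control and was at 0.477 FPKM with the inhibitor, a ratio of 0.0948 (0.0719 to 0.123). ACAT2 thus stood at 0.232 of its control level and MVK, starting near the floor, at 0.0948.

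The later steps of that stage were as low. The decarboxylase MVD was at 15.7 and 1.83 FPKM, a ratio of 0.117 (0.0992 to 0.137). IDI1, the isomerase that makes the active isoprene unit (chromosome 10, 1039152 to 1049170), was at 30.5 and 2.84 FPKM, with a ratio of 0.0930 (0.0813 to 0.106). FDPS, which joins these units to farnesyl diphosphate, was at 25.2 and 5.95 FPKM. PMVK, the second kinase, stayed under the floor and stood apart, at 4.71 and 3.92 FPKM.

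In the sterol stage, 10 of 11 members were lower by 2-fold or more and the median centred log2 ratio was -1.49. FDFT1, which makes squalene, was at 55.5 and 9.53 FPKM, and LSS, which closes the sterol rings, at 22.2 and 3.18 FPKM. MSMO1, which removes methyl groups from the ring, had the lowest ratio of all 6025 members, a centred log2 ratio of -3.25 or 9.52-fold. DHCR7, which completes cholesterol in its last steps, was at 43.1 and 6.56 FPKM. The members of this stage did not move by one amount. EBP, the sterol isomerase, was at 17.9 and 6.84 FPKM with a centred log2 ratio of -1.08. CYP51A1, the demethylase of lanosterol, was under the floor at 2.56 and 0.473 FPKM.

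**Figure D2:**
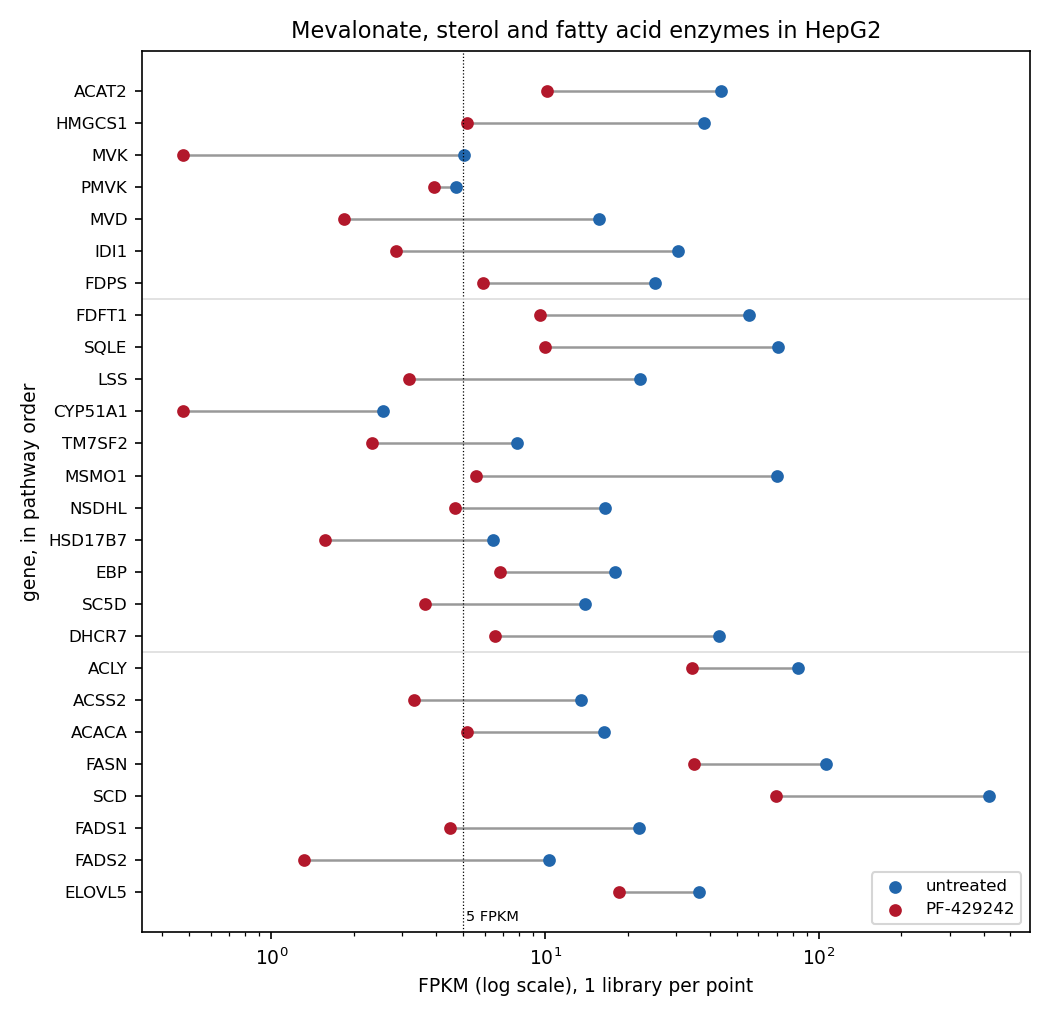
FPKM on a log scale in untreated (blue) and PF-429242-treated (red) HepG2 for 26 enzyme genes in pathway order, 1 library per point, with grey lines between the stages. Every red point lies left of its blue point, by least for PMVK, which with CYP51A1 is below the 5 FPKM floor marked by the dotted line.

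Promoters of these genes shared a short sequence. RefSeq promoters on GRCh38.p14, from 250 bases before to 50 after an annotated start, were matched by symbol for 5007 of the 6025 members and for 13 of the 18 cholesterol synthesis genes. The box CCAAT, the known binding sequence of the factor NF-Y, was searched on both strands, so that ATTGG counts as a match. It was found in 13 of 13 of these promoters (100%), in 25 of 35 of the genes lower by 2-fold or more (71.4%), in 44.2% of all members and in 39.7% of the 27305 genes with a promoter. Genes higher by 1.5-fold or more also held it more often than all members did, in 59.0% of 39 promoters. These are descriptions of letters in a window, and no match is shown to be a site in use. For the 5 genes with the lowest centred log2 ratios of FPKM + 1 among the promoters matched, 1 window each is shown, 5′ to 3′ on the gene's strand, with the box in capitals.
MSMO1, chr4:165327518-165327546, plus strand: ccatccgcggagCCAATggctgggaccgc
IDI1, chr10:1048957-1048985, minus strand: ctggcgcgagcgATTGGctgcgcggcccg
HMGCS1, chr5:43313496-43313524, minus strand: ctaccggccgcgATTGGctgtgggagcca
MVD, chr16:88663195-88663223, minus strand: gactcgccgctgATTGGtcggcgcgcgag
DHCR7, chr11:71448471-71448499, minus strand: caggctcctcgaCCAATcacggggcgcgg

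The classical sterol regulatory element TCACCCCAC was rare in these windows on either strand. It was in 0 of the 13 cholesterol synthesis promoters, in 0.599% of all members and in 0.535% of all genes with a promoter. Among members past 1.5-fold in either direction it was in 2 promoters, both of lower genes. One was that of SREBF2, the gene of SREBP-2 itself, and the other that of MID1IP1, a partner of acetyl-CoA carboxylase. Many variants of this element exist that an exact search does not find. Both windows are shown with the element in capitals.
SREBF2, chr22:41832962-41832990, plus strand: tgacgcgccaTCACCCCACgcaccgcttc
MID1IP1, chrX:38801409-38801437, plus strand: aggggcggtgGTGGGGTGAttccaagggc

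A pair of neighbouring genes was low together. NSDHL, a sterol dehydrogenase of the pathway (chromosome X, 152830967 to 152869729, plus strand), had 16.5 FPKM untreated and 4.68 FPKM treated (ratio 0.283, 0.239 to 0.335). CETN2, which encodes a centrin of centrosomes and DNA repair and has no known part in sterol synthesis (chromosome X, 152826973 to 152830777, minus strand), was at 20.7 and 6.37 FPKM (ratio 0.308, 0.265 to 0.356). Both counting intervals lie well below 1 and overlap each other. The genes point away from each other with 190 bases between their GENCODE starts. Of all members past 1.5-fold in either direction, this was the 1 pair with another member starting head to head within 1000 bases. The 189 bases between the starts (GRCh38, plus strand) hold 4 CCAAT boxes on either strand, overlapping matches counted once, shown in capitals because both genes face this stretch.
NSDHL and CETN2, chrX:152830778-152830966: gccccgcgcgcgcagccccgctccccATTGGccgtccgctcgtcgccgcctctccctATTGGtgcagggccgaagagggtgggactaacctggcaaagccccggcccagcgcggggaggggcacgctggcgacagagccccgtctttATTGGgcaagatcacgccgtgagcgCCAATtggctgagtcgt

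Genes of the machinery that controls the pathway differed in level by role. SREBF2 (chromosome 22, 41833079 to 41907308) had a centred log2 ratio of -2.14, and SREBF1, the gene of SREBP-1, was at 6.54 and 1.98 FPKM, or -1.15. The other 8 members of the list of SREBP machinery and site-1 protease substrates stayed between -0.23 and 0.24. MBTPS1 itself was highest, at 0.24, SCAP was at -0.03 and ATF6 at 0.07. The GlcNAc-phosphotransferase gene GNPTAB, whose precursor protein is also cut by site-1 protease, was at -0.17. The ER-bound factors CREB3, CREB3L2 and CREB3L3 were at -0.23, 0.21 and 0.12, and ATF6B at 0.10. INSIG1, which holds SCAP in the ER, was no member: the HepG2 control had 1 fragment and the treated library 0, which allows no ratio. In PLC/PRF/5 it was at 16.6 FPKM in the control, and why so few fragments were assigned to it in HepG2 was not tested.

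Of 14 members on the list of cholesterol uptake and intracellular transport, 4 were lower by 2-fold or more and 7 by at least 1.5-fold, with a median centred log2 ratio of -0.40. STARD4, a soluble sterol carrier, was at 15.2 and 3.34 FPKM. NPC1L1, the protein of intestinal and biliary cholesterol absorption, was at 7.23 FPKM in the control and 1.25 FPKM with the inhibitor (ratio 0.173, 0.143 to 0.209). The acid lipase LIPA, which frees cholesterol in the lysosome, had a centred log2 ratio of -0.92. Further genes of the list lay nearer to the median, such as NPC1, which exports cholesterol from lysosomes, at -0.17. INSIG2, the relative of INSIG1, was highest of the list at 0.29 (24.2 and 26 FPKM). These 2 were chosen after their values were seen.

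ERG28 was the 1 gene among the 20 lowest that no list of sterol or fatty acid genes held. It encodes an ER membrane protein that in yeast holds sterol enzymes together (chromosome 14, 75649791 to 75661189). Its level was 23.5 FPKM untreated and 4.98 FPKM treated, a ratio of 0.212 (0.185 to 0.243), within the range of the pathway's enzymes. Of the 44 genes lower by 2-fold or more, 31 were in lists of sterol or fatty acid metabolism. In contrast, the side branches that leave the mevalonate pathway towards dolichol, ubiquinone and protein prenylation lay at the median gene. Their 13 members had a median of 0.01 and none was past 1.5-fold, with the methyltransferase ICMT lowest of the 5 named at -0.24 and RABGGTB, a subunit of the enzyme that prenylates Rab proteins, highest at 0.32.

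Fatty acid synthesis was lower at several steps that supply or build the chain. Of the 7 members of the list, 4 were lower by 2-fold or more and 6 by 1.5-fold or more, and their median centred log2 ratio was -1.06. ACSS2, which makes acetyl-CoA from acetate, was at 13.5 and 3.31 FPKM, a ratio of 0.244 (0.216 to 0.275). ACLY, which makes it from citrate, was at 83.5 and 34.4 FPKM, and ACACA, the carboxylase that commits it to fatty acids, at 16.4 and 5.17 FPKM. SLC25A1, the mitochondrial citrate carrier, was at 54.4 and 28.0 FPKM with a centred log2 ratio of -0.74. MLXIPL, which encodes the carbohydrate-sensing factor ChREBP, was the member nearest to the median, at -0.06.

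Among 10 desaturases and elongases, all were below the median gene, but the list was split. The front-end desaturases FADS1 and FADS2, which make polyunsaturated fatty acids, had centred log2 ratios of -1.88 and -2.10. SCD, which makes oleate from stearate, stood at 419 and 69.4 FPKM, a difference of -349 FPKM. ELOVL5 was at 36.6 and 18.6 FPKM, a centred log2 ratio of -0.75, and the other 6 members lay between -0.34 and -0.03. The low values in this list were therefore those of 3 desaturases and 1 elongase.

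Other genes of fatty acid handling did not follow as a group. FABP1, the abundant fatty acid binding protein of hepatocytes (chromosome 2, 88122982 to 88128116), had 47.3 FPKM untreated and 16.9 FPKM treated (ratio 0.357, 0.329 to 0.387). It was the 1 gene past 1.5-fold among 16 members of fatty acid oxidation and ketogenesis, whose median was -0.03. PLIN2, which coats lipid droplets, was at 41.3 and 62.3 FPKM, higher by 0.77 on the centred log2 scale, while the 13 members of the triglyceride and lipid droplet list had a median of 0.00 and ran from -1.50 to 0.77. Of these, 1 was lower by 2-fold or more and 1 was higher by at least 1.5-fold. PCYT2, the regulatory enzyme of phosphatidylethanolamine synthesis, was lower at -0.69 among 11 phospholipid genes with a median of -0.11. ACSL3, which activates fatty acids, and DBI, which binds their CoA esters, were in no list and stood at -0.86 and -0.83. Both were named after their values were seen.

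Chaperones of the ER lumen were lower in part. Of 22 members, 15 were below the median gene and 2 were lower by 1.5-fold or more, and the list median was -0.09. CALR, the calcium-binding chaperone of glycoproteins (chromosome 19, 12938578 to 12944489), stood at 460 and 200 FPKM, a difference of -260 FPKM. MANF, a secreted stress protein, was at 29.4 and 15.4 FPKM (-0.69). HSPA5, the central chaperone BiP, was at 365 and 222 FPKM (ratio 0.608, 0.597 to 0.620), and HSP90B1 at 292 and 190 FPKM. DNAJB9, a cochaperone known as a target of XBP1, went the other way at 9.33 and 11.2 FPKM, a centred log2 ratio of 0.43.

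The promoters of this group were set beside the ER stress element, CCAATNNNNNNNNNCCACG, on both strands. The element was found in 5 of 20 chaperone promoters (25%), against 0.18% of all members and 0.0916% of all genes with a promoter. Whether the element was first defined from promoters of such chaperones was not checked, so these shares are description and no independent result. It overlaps the CCAAT box, which 85.0% of these 20 promoters held. The centred log2 ratios of its 5 holders were -1.01 for CALR, -0.52 for HSPA5, -0.42 for HSP90B1, -0.30 for PDIA6 and 0.15 for CANX. Thus 4 of the 5 were below the median gene and CANX, the membrane-bound relative of CALR, was not. Also below it were 15 of the 22 members of the list and 3012 of all 6025 members. Over all members with a promoter 9 held the element, and values of those outside the list are not given. The windows are shown with the element in capitals, on each gene's strand.
CALR, chr19:12938379-12938407, plus strand: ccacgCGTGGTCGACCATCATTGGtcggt
HSPA5, chr9:125241386-125241414, minus strand: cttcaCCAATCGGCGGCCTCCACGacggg
HSP90B1, chr12:103930211-103930239, plus strand: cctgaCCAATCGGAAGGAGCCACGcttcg
PDIA6, chr2:10812848-10812876, minus strand: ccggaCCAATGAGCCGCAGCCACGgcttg
CANX, chr5:179698773-179698801, plus strand: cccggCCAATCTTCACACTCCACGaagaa

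Genes of the next steps of secretion differed from one another. Of 33 members that form the coats and tethers between ER and Golgi, 26 were below the median gene, with a list median of -0.18. KDELR3, a receptor that returns chaperones from the Golgi to the ER, stood at 9.75 and 3.70 FPKM (ratio 0.379, 0.309 to 0.464), and its relative KDELR2 at 86.8 and 54.3 FPKM. The translocon and N-glycosylation genes, which admit proteins to the ER, had 28 members with a median of 0.08. The 19 members of XBP1 and ER-associated degradation had a median of 0.10, and in neither list was a gene past 1.5-fold. CALU, a calcium-binding protein of the ER in no list, was lower at 72.7 and 41.8 FPKM, and was named after its value was seen.

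Higher levels were found among genes of amino acid supply and stress. The integrated stress response is a route by which kinases that sense amino acid lack, ER stress or heme lack raise the translation of the factor ATF4, which acts on genes of amino acid synthesis and uptake. Of 18 members of its list, 15 were above the median gene and 8 were higher by 1.5-fold or more, against 0.863% of all members, and the median was 0.44. DDIT4, an inhibitor of mTORC1, was at 5.36 FPKM untreated and 13 FPKM treated (ratio 2.42, 2.05 to 2.88). GDF15, a secreted stress hormone, was at 71.1 and 118 FPKM, and STC2, a secreted glycoprotein, at 11.6 and 19.7 FPKM. ATF4 itself was at 118 and 144 FPKM, a gain smaller than those of these 3 genes on the centred log2 scale, at 0.48. Not every gene of the list was high: TRIB3 had 23.5 FPKM in both libraries, and EIF2AK3, the kinase PERK, was at 7.76 and 4.61 FPKM. These 2 were chosen after their values were seen.

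In the synthesis of serine, 1-carbon units, asparagine and proline, 11 of 14 members were above the median gene, 5 by 1.5-fold or more, and the median was 0.39. The serine route itself was higher at successive steps. PHGDH, its first enzyme, was at 13 and 18.9 FPKM, and PSAT1, the second, at 112 and 161 FPKM (ratio 1.44, 1.38 to 1.49). The mitochondrial 1-carbon enzymes SHMT2 and MTHFD2 followed, at 31.6 and 45.0 FPKM and at 23 and 40.7 FPKM. The proline enzymes PYCR1 and ALDH18A1, chosen after their values were seen, were at -0.14 and -0.17 on the centred log2 scale.

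Among amino acid transporters, 11 of 12 members were above the median gene, though just 1 was past 1.5-fold. SLC7A11, the cystine importer (chromosome 4, 138164097 to 138242349), was at 7.25 and 17.2 FPKM, a ratio of 2.37 (2.21 to 2.53). The glutamine carrier SLC1A5 was at 37.6 and 48.4 FPKM and the cationic carrier SLC7A1 at 20.2 and 24.8 FPKM, with centred log2 ratios of 0.55 and 0.47. The enzymes that load tRNAs are encoded by separate genes for the cytosol and the mitochondria, a few serving both. Of 19 cytosolic aminoacyl-tRNA synthetases, 17 were above the median gene, with a list median of 0.22 and a range from -0.23 to 0.74. YARS1, GARS1 and MARS1 were highest at 0.74, 0.69 and 0.66. The 10 mitochondrial ones had a median of -0.03 and ran from -0.13 to 0.19, within the cytosolic range. The difference between the lists was not tested. On the deposited scale the medians of the stress response, serine and transporter lists stayed above 0.

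The sequence TGATGNAA, a form of the C/EBP-ATF response element, was searched in these promoters on both strands. It was found in 7 of 19 promoters of the serine and transporter lists together (36.8%) and in 6 of 15 of the cytosolic synthetases (40.0%). All members held it in 2.62% of promoters and all genes in 4.46%. These sets were joined after the values were seen. The 7 holders of the first set had centred log2 ratios from 0.22 to 0.55, so none was past 1.5-fold. The 6 synthetase holders ran from 0.24 to 0.69. Among genes higher by 1.5-fold or more, 3 of 39 promoters held it (7.69%). Windows with the element in capitals are shown for 2 genes of each set, on the gene's strand.
SLC1A5, chr19:46784893-46784922, minus strand: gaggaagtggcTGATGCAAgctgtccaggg
MTHFD1L, chr6:150866346-150866375, plus strand: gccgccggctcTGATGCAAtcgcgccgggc
GARS1, chr7:30594834-30594863, plus strand: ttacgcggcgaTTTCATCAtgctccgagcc
AARS1, chr16:70289675-70289704, minus strand: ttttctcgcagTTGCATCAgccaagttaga

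**Figure D3:**
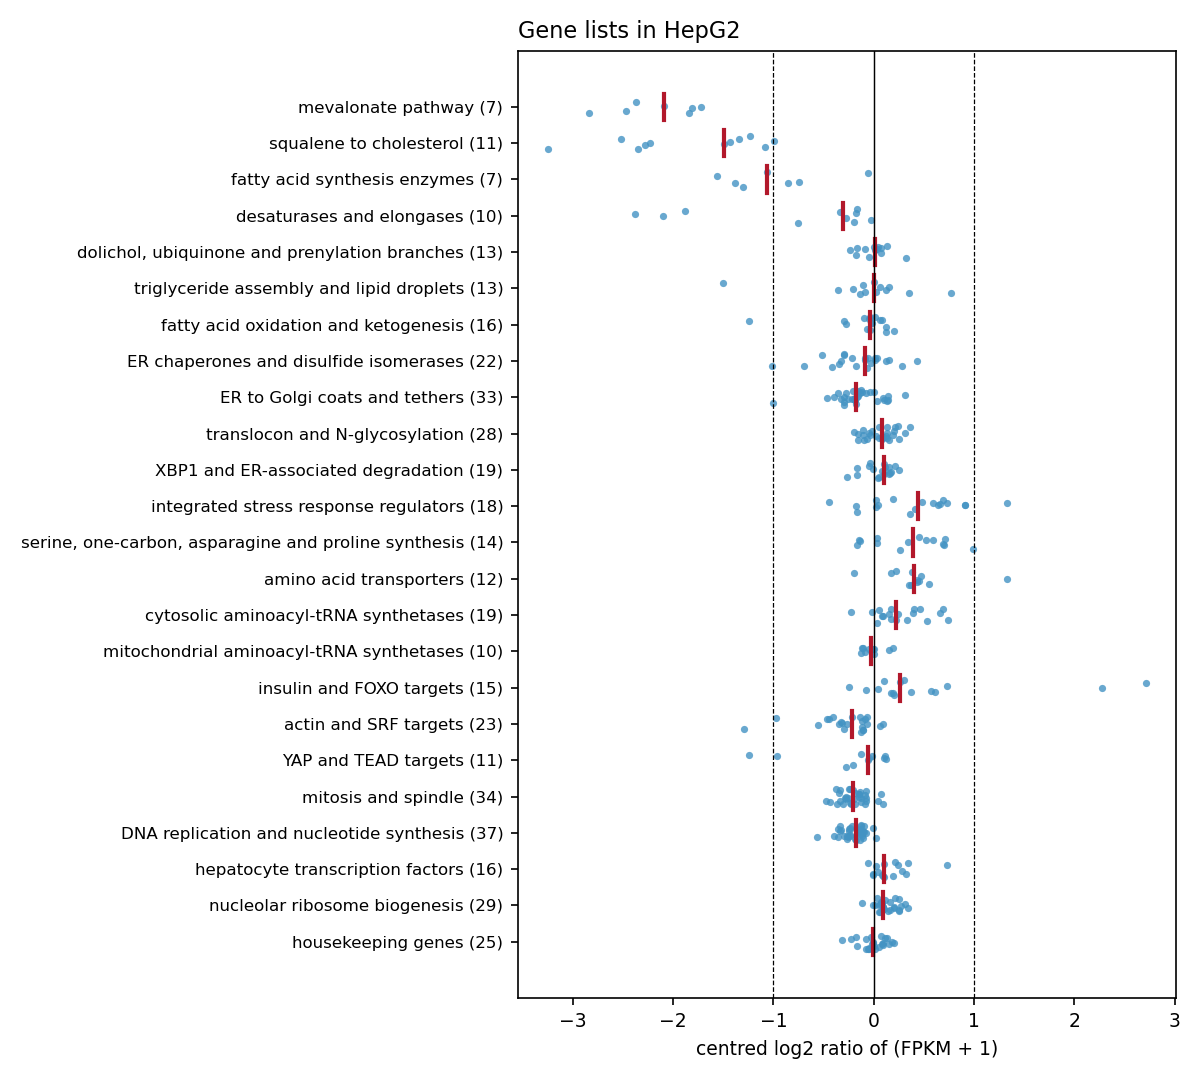
Centred log2 ratio (x axis, treated over untreated HepG2 relative to the median of all members) for the members of 24 gene lists, with the number of members in brackets. Each blue point is a gene, the red bar is the list's median and the dashed lines are 2-fold. The mevalonate list has its median at -2.09, the stress response list at 0.44 and the housekeeping list at -0.01.

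The 2 highest ratios were both on the list of genes that insulin restrains through FOXO factors. IGFBP1, a secreted protein that binds insulin-like growth factors (chromosome 7, 45888357 to 45893668), gained 89.8 FPKM, the largest gain of any member, and was 6.61-fold higher relative to the median gene. DEPP1, a FOXO target of autophagy and redox control (chromosome 10, 44970981 to 44978810), was 4.86-fold higher. Of the 15 members of the list, 13 were above the median gene, and the list median was 0.26. In it 4 were higher by at least 1.5-fold, against 0.863% of all members. The other 2 of these 4 were KLF15, a factor of fasting metabolism, at 3.29 and 5.22 FPKM, and TRIB1, a pseudokinase, at 16.1 and 21.8 FPKM. KLF15 and DEPP1, the latter at 3.19 and 16.8 FPKM, passed the floor just through the treated library, where they were high. FOXO1, chosen after its value was seen, was at 0.26 and INSR, the insulin receptor, at 0.10. The FOXO sequence GTAAACA, on either strand, was in 2 of 39 promoters of the genes higher by 1.5-fold or more (5.13%), those of DEPP1 and the stress cytokine gene GDF15. It was in 3.16% of all members' promoters and 4.19% of all genes'.
DEPP1, chr10:44978972-44979000, minus strand: tgccctgcagcGTAAACAttccccagcct

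The remaining genes higher by 2-fold or more came from several settings. The P450 enzyme gene CYP1A1, induced by ligands of the aryl hydrocarbon receptor, stood at 1.94 and 7.62 FPKM, while the other 3 members of its list lay between -0.15 and 0.20. FST, which encodes the activin antagonist follistatin, was at 26.3 and 53.6 FPKM (ratio 2.04, 1.90 to 2.18), and INHBE, which encodes an activin subunit, at 3.65 and 7.99 FPKM (ratio 2.19, 1.84 to 2.60). BMF, a BH3-only protein of the BCL2 family, was at 3.56 and 7.54 FPKM, and the other 8 members of that family stayed within 1.5-fold. MIXL1, a homeobox factor of early development, was at 9.64 and 18.6 FPKM, and S100P, a calcium-binding protein, at 47.9 and 86.3 FPKM. Below 2-fold, the cytokine gene CSF1 and the receptor gene IL6R were at 0.90 and 0.83 on the centred log2 scale. CYP1A1, INHBE, BMF and IL6R were under 5 FPKM in the control. They passed the floor just through the treated library, where they were high. DUSP6, a phosphatase of ERK induced by that pathway, was at 19.4 and 29.7 FPKM, and EIF4EBP1, a repressor of translation under mTORC1, at 29.2 and 44.6 FPKM.

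**Figure D4:**
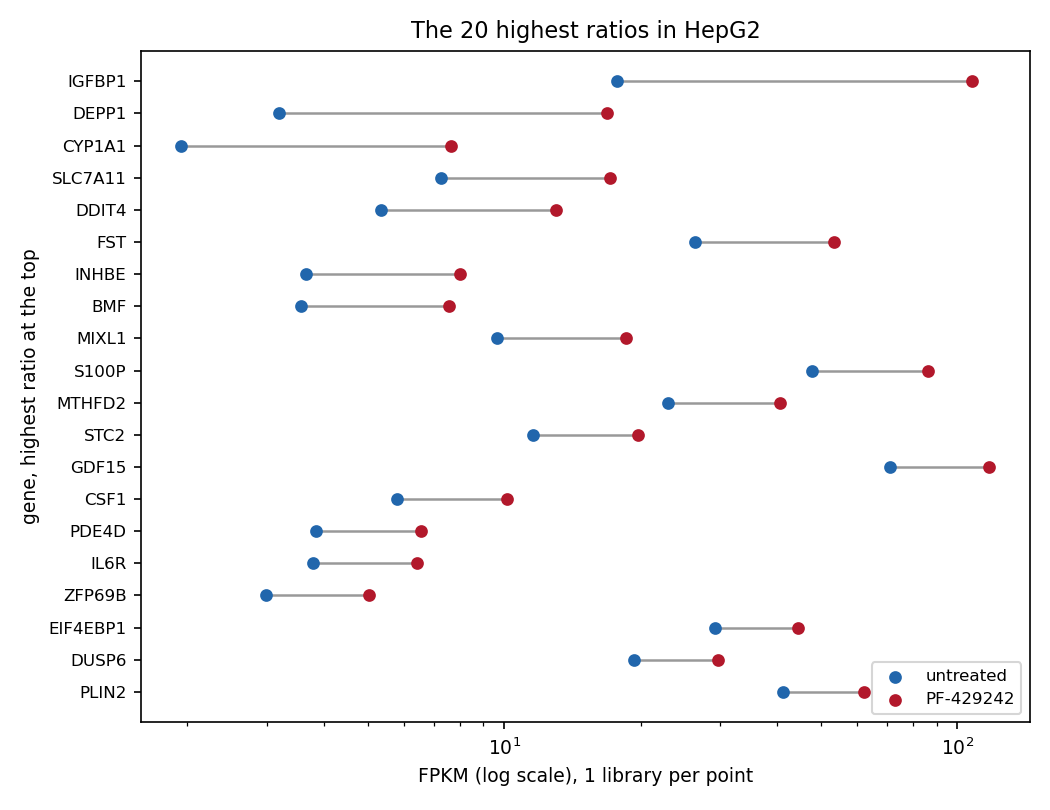
FPKM on a log scale in untreated (blue) and PF-429242-treated (red) HepG2 for the 20 members with the highest ratios, highest at the top, 1 library per point. IGFBP1, at 17.8 and 108 FPKM, has the longest line, and 9 of the 20 genes were under 6 FPKM in the control.

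Outside lipid metabolism, the lower genes included several of the actin cytoskeleton. Of 23 members of the list of actin and SRF targets, 21 were below the median gene and the median was -0.22. TAGLN, an actin-binding protein of contractile cells, was at 10.3 and 3.04 FPKM (ratio 0.296, 0.254 to 0.343), MYL9, a myosin light chain, at 13.8 and 5.65 FPKM, and VCL, which anchors actin at adhesions, at 9.47 and 5.22 FPKM. ACTA1, the skeletal actin gene, was in no list and stood at 5.16 and 1.28 FPKM. Its transcript shares much sequence with other actin genes, and the sources used here do not say how shared reads were counted. ANKRD1 and CCN1, targets of YAP and TEAD factors, were at 22.7 and 7.77 FPKM and at 6.71 and 2.47 FPKM, while the 11 members of their list had a median of -0.06. The keratin KRT19 and the claudins CLDN6 and CLDN1 were lower at -0.92, -0.75 and -0.72 among 15 junction and keratin genes. In the matrix list COL2A1, the collagen of cartilage, was at 23.3 and 10.2 FPKM, and SPP1, osteopontin, higher at 210 and 269 FPKM.

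Beside ERG28, CETN2 and ACTA1, the genes lower by 2-fold or more that were in none of the lists were MAGED1, MAGED2, SLCO4C1 and AP1M2. MAGED1 and MAGED2, related genes of the melanoma antigen family on chromosome X, were at 39.8 and 13.5 FPKM and at 26.5 and 10.3 FPKM. SLCO4C1, an organic anion carrier, was at 10.2 and 3.87 FPKM, and AP1M2, an adaptor subunit of epithelial sorting, at 7.45 and 2.69 FPKM. The metallothioneins MT1G and MT1F were at -0.87 and -0.79, and these near-identical genes may share reads. ALDOC, an aldolase, was at 6.11 and 1.75 FPKM (-1.18), while the 17 members of glucose uptake and glycolysis had a median of 0.11.

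Most cell division genes were below the median gene, each by less than 1.5-fold. Of 71 genes of mitosis and DNA replication at the floor, 67 were below the median gene, none was past 1.5-fold, and the median was -0.19. They ran from TK1, a thymidine kinase of S phase, at -0.57 to 0.09. Their summed level was 1975 FPKM untreated and 1452 FPKM treated. CDK1, the mitotic kinase, was at 22.9 and 14.4 FPKM, TOP2A at 116 and 78.8 FPKM and TK1 at 26 and 14.9 FPKM. Genes of ribosome assembly in the nucleolus leaned the other way, with 27 of 29 above the median gene and a median of 0.09, which is below 0 on the deposited scale. Of 46 translation initiation factors 39 were above it, with a median of 0.07 that also turns on that scale.

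Large gene families had medians near the median gene. No member of the 78 cytosolic or 65 mitochondrial ribosomal proteins, the 32 proteasome subunits or the 31 complex I subunits and assembly factors was past 1.5-fold. Of 32 families gathered by symbol, 26 had no such member. Over all members 1.46% were lower and 0.863% higher by that much, so a family of 31 or 32 genes would hold few or none. The 112 solute carriers had 5 lower (4.46%) and 1 higher, and the 72 TMEM genes had 4 lower (5.56%). The 16 hepatocyte transcription factors had a median of 0.10, with CEBPB alone past 1.5-fold at 18.9 and 27.9 FPKM. The 17 major plasma proteins had a median of -0.06 and the 18 genes of coagulation, fibrinogen and complement one of -0.04. In the latter the 3 fibrinogen chains were lowest together with CFI: FGA was at 226 and 150 FPKM, FGB at 145 and 94.4 FPKM and FGG at 354 and 261 FPKM. The 12 members of the iron list, the 27 of the lysosome list and the 14 of drug metabolism had medians of -0.04, 0.07 and 0.04.

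Values for the same genes in PLC/PRF/5 are set beside these, centred on the median of that line's own 6366 members. Since the genes were chosen by their HepG2 ratios, the choice favours larger values in HepG2. How much of a difference comes from it was not tested, nor was any difference between the lines. Of the 44 genes lower by 2-fold or more in HepG2, 36 were also members in PLC/PRF/5. Of these, 35 were below its median gene and 12 were lower by 2-fold or more, and the 36 had a median of -0.84 there beside -1.72 in HepG2. ANKRD1 was the exception, at 21.1 and 20.2 FPKM or 0.10. Of the 10 higher genes 8 were members there, all 8 were above its median gene, and 3 were higher by 2-fold or more. Over all 6366 members in PLC/PRF/5, 23 were lower and 31 higher by 2-fold or more.

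By list, the median of the mevalonate genes was -1.02 in PLC/PRF/5 beside -2.09 in HepG2, and that of the integrated stress response 0.41 beside 0.44. DEPP1 was at 2.06 in PLC/PRF/5 and 2.28 in HepG2. FST stood at 148 FPKM in the PLC/PRF/5 control and 160 FPKM with the inhibitor, a centred log2 ratio of 0.27 beside 1.19. The ER chaperone list had a median of -0.14 there beside -0.09 in HepG2, and CALR was at -0.36 beside -1.01. HSPA5 was at 262 and 229 FPKM there, or -0.04 beside -0.52, and MANF at 17.7 and 17.0 FPKM, or 0.10 beside -0.69. The matrilin gene MATN3, named after its value was seen, was at 96.6 and 53.2 FPKM in HepG2 and at 13.7 and 17.1 FPKM in PLC/PRF/5.

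**Figure D5:**
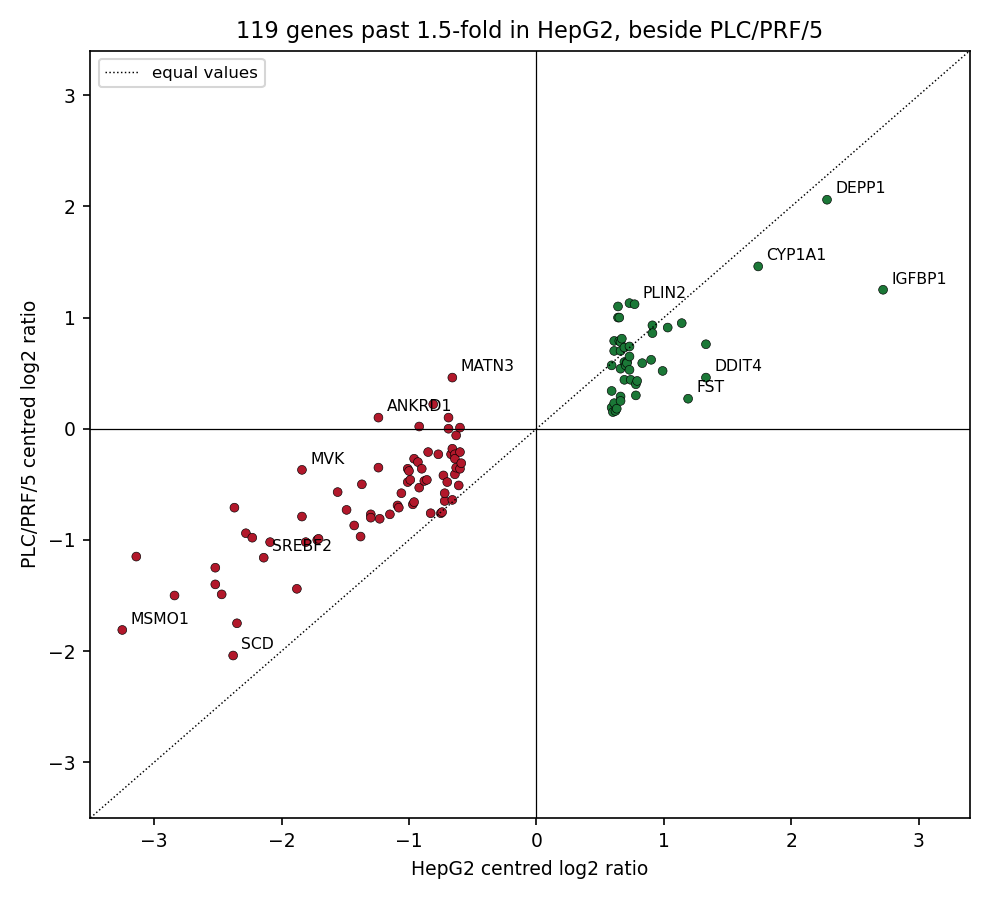
Centred log2 ratio in HepG2 (x axis) and PLC/PRF/5 (y axis) for the 119 genes past 1.5-fold in HepG2 that were at the floor in both lines. Red points were lower and green points higher in HepG2, and the dotted line marks equal values. All 47 green points are above 0 in PLC/PRF/5 and 66 of the 72 red points are below it, with MATN3 the highest red point at 0.46.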

How the data were processed

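The authors deposited FPKM for each gene and library. TopHat2 and the build GRCh38 are named in the submitters' processing notes. Not given in the sources used here are the version, the counting program, the annotation and the use of strand. Gene types, positions and exon lengths are from GENCODE 29, and symbols come from a table of gene names. Whole fragments were recovered from FPKM, exon length and library total (tolerance 0.001) for 6021 of 6025 members. The annotated exon length gave whole fragments for 2827 members. For the rest of the 6021, the nearest length that gave whole numbers in all libraries was used. Their fragment counts and intervals rest on that length. The log2 ratio of (FPKM + 1), which understates changes of low genes, was centred on the median member, with no test. The intervals on ratios do not include the pseudocount.

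The 55 gene lists and 32 symbol families, the members and the alternatives were chosen with earlier results of these data known. Genes named were the 20 highest and 20 lowest ratios, the 10 largest gains and losses in FPKM, all of the SREBP machinery list, any enzyme of mevalonate, sterol and fatty acid synthesis, and up to 5 with the largest change per other list. A few genes these rules select are not reported one by one and stay in counts and medians. Promoters are RefSeq's (GRCh38.p14). Protein features were not analysed here. Python 3.11.15, pandas 2.3.3 and scipy 1.17.1 were used, and the steps were tested on simulated data. There the exon length was known and no control level was set under 5 FPKM. The search for a length and the entry of genes low in the control were therefore not tested.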

Additional observations from a re-analysis of the deposited data

How the results depend on the processing

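The count of genes past 2-fold moved with the threshold, the pseudocount and the floor. From 10 higher and 44 lower genes it went to 52 and 88 at 1.5-fold, to 2 and 14 at 4-fold, to 4 and 28 with a pseudocount of 5, and to 3 and 23 with a floor of 20 FPKM. On the deposited scale, not centred, 5 were higher and 60 lower, and the 60 included all 44. With a pseudocount of 0.1, a floor of 1 FPKM, no filter, equal sums of FPKM or quantile normalization, counts stayed within 1.5 times, at 10 to 15 higher and 36 to 58 lower. The genes called were not always the same. Without a filter 7 of the main 10 higher genes were kept, and after quantile normalization 36 of the 44 lower ones. Of 51 lists, 3 had a median higher by 1.2-fold or more (a limit chosen after the values were seen) and 5 a lower one. On the deposited scale these were 0 and 19, and under the other alternatives 3 or 4 and 4 or 5. By construction the deposited scale shifts every gene by the same amount. The cause of the other moves was not tested. No gene past 1.5-fold changed sign under any alternative that kept it, nor did a list median past 1.2-fold. No paired analysis was possible because each group held 1 library, and no library could be left out. Counting error is small at this depth, but the spread between cultures is not measured.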

Other observations

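Several further genes with known parts near the described routes were lower or higher. All but NR0B2 were in no list, and those outside the naming rules were chosen after their values were seen. RDH11, a retinol dehydrogenase of the ER, was at 20.6 FPKM in the control and 8.68 FPKM with PF-429242 (ratio 0.422, 0.390 to 0.456). CLCN6, an endosomal chloride exchanger, was at 7.23 and 2.75 FPKM, and TMEM135, a protein of peroxisomes and mitochondria, at 8.45 and 4 FPKM. THBS1, a matrix glycoprotein, was at 32.0 and 15.5 FPKM in HepG2 and at 8.02 and 8.42 FPKM in PLC/PRF/5. MICA, a ligand of the natural killer receptor NKG2D, was at 12.5 and 5.31 FPKM. Among higher genes, the feedback regulators of growth factor signalling ERRFI1 and SPRY4 were at 60.2 and 87.9 FPKM and at 10.7 and 15.1 FPKM. NR0B2, the bile acid-induced repressor SHP, was at 25 and 36.8 FPKM, a centred log2 ratio of 0.73, with 1.13 in PLC/PRF/5. It was the 1 gene past 1.5-fold among 7 members of the bile acid list, whose median was -0.01. PDE4D, a cAMP phosphodiesterase, was at 3.85 and 6.55 FPKM (ratio 1.70, 1.58 to 1.83). PDE4D passed the floor just through the treated library.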
